A study of Rattus norvegicus with 6 samples.

Results

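The genes of cholesterol and fatty acid synthesis were examined as a list of 30 genes: the enzymes of the mevalonate and sterol pathway, the proteins that sense and carry sterols, and the enzymes of fatty acid synthesis. Each was found by its symbol through the RefSeq accession of the array probes. Of the 30 listed genes, 29 had a probe and 28 had signal enough to be tested, among 11530 genes tested in all. The renal cortex came from 6 male Sprague-Dawley (Crl:CD(SD)) rats that were 5 weeks old when purchased, and each animal's RNA was read on its own Agilent array with a single dye. In the ethylenediamine group, 3 rats received ethylenediamine dihydrochloride at 500 mg/kg/day for 4 weeks. In the water group, 3 rats received water for 4 weeks. The labels give no genotype or other agent, and all rats were on a basal diet with tap water. The comparison asks how the cortex of ethylenediamine-treated rats differs from that of water-treated rats at this 1 dose and time.

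Cholesterol is built from acetyl-CoA by way of mevalonate, farnesyl diphosphate, squalene and lanosterol. The transcription factors of the SREBP family (Srebf1 and Srebf2) drive the genes of the pathway. Their precursors are held in the endoplasmic reticulum by Insig proteins and escorted by Scap; when membrane sterol is low, Scap carries them to the Golgi, where the proteases Mbtps1 and Mbtps2 release the active factor. Insig1 is itself a target of these factors, as are most of the enzymes, while fatty acid synthesis depends more on the Srebf1 product. The kidney cortex, mostly proximal tubule, makes cholesterol for its own membranes and normally takes most of its energy from fatty acids.

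Values below are log2 intensities relative to the 75th percentile of the same array, and a fold change is the ethylenediamine mean minus the water mean on that scale. Probe levels are compared only within a probe, since probes differ in brightness for reasons of sequence. Between 35691 and 40843 of 61515 probes were well above background on the ethylenediamine arrays, and between 38930 and 40563 on the water arrays. Ethylenediamine replicate 1 had the lowest number. The 3 water arrays and ethylenediamine replicate 1 were on one slide (slide 1), and ethylenediamine replicates 2 and 3 on another (slide 2). The first principal component of all genes (30.5% of variance) set slide 2, at 14.51 and 24.35, apart from slide 1. On slide 1, ethylenediamine replicate 1 lay at -3.56 and the water arrays at -13.17 to -10.26. Every ethylenediamine array thus lay above every water array, so slide and treatment cannot be told apart on this component. On the second (23.6%), ethylenediamine replicate 1 lay at -27.64 and all remaining arrays between 0.49 and 9.29. A comparison within slide 1 therefore rests on 1 ethylenediamine array. Its p-values take all spread from the 3 water arrays, so that array is assumed to vary like them. The tissue was checked against its markers, and 7 of 7 proximal tubule markers were measured. Their summed signal was 1310 to 1350 times the 75th percentile in ethylenediamine cortex and 1310 to 1350 times in water cortex. By gene, 5 of the 7 had a log2 fold change above 0, up to 0.13 (Slc3a1), and 2 below. In those 2, Lrp2 (-0.19) and Slc5a2 (-0.14), every ethylenediamine array lay below every water array, as in 8.27% of all genes. Lrp2 had an unadjusted p of 0.0139 and an adjusted p of 0.371 (limma). Slc22a6 (0.02) was separated the other way on its brightest probe, as were 9.2% of all genes. Its 2 kept probes had opposite signs, as had those of Slc34a1 and Slc22a8, so its direction is not settled. In bulk tissue, fewer cells of a type and less RNA per cell cannot be told apart.

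The pathway as a whole sat close to its level in water-treated rats. None of the 28 genes differed between ethylenediamine and water rats at an adjusted p under 0.05 (limma, Benjamini-Hochberg over 11530 genes), and neither did any other gene, so that the background was 0%. The median log2 fold change was 0.06 over the 28 genes, 18 of them above 0 and 10 below. Over all 11530 genes tested it was -0.004, with 5632 above 0. Every one of the 28 differed by less than 1.5-fold, as did 11151 of the 11530 genes. The median size of the log2 fold change, sign left aside, was 0.1 over the 28 genes and 0.09 over all genes. The 95% interval of the fold change lay within 1.5-fold either way for 23 genes and within 2-fold for 27, the exception being Lss. A miss of the threshold does not show that the groups were alike, and these intervals are the measure of how large a difference the arrays leave room for.

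At an unadjusted p under 0.05, 4 of 28 genes differed (14.3%), against a background of 10.4% of all genes. Acat2, Pmvk and Tm7sf2 were higher in ethylenediamine cortex, where the background for higher genes was 5.39%, and Insig1 was lower, where the background for lower genes was 4.97%. The 3 ethylenediamine arrays all lay above the 3 water arrays for 5 genes (Acat2, Pmvk, Cyp51, Tm7sf2 and Ebp), with a background of 9.2%. They all lay below for 2 genes (Msmo1 and Insig1), with a background of 8.27%. Without ethylenediamine replicate 1, the counts at unadjusted p under 0.05 were 4 higher (Acss2 joined) and 3 lower (Lss and Nsdhl joined), where 13.5% of all genes passed. Within slide 1, 1 gene (Acat2) was higher and 0 lower, where 8.37% of all genes passed.

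**Figure D1:**
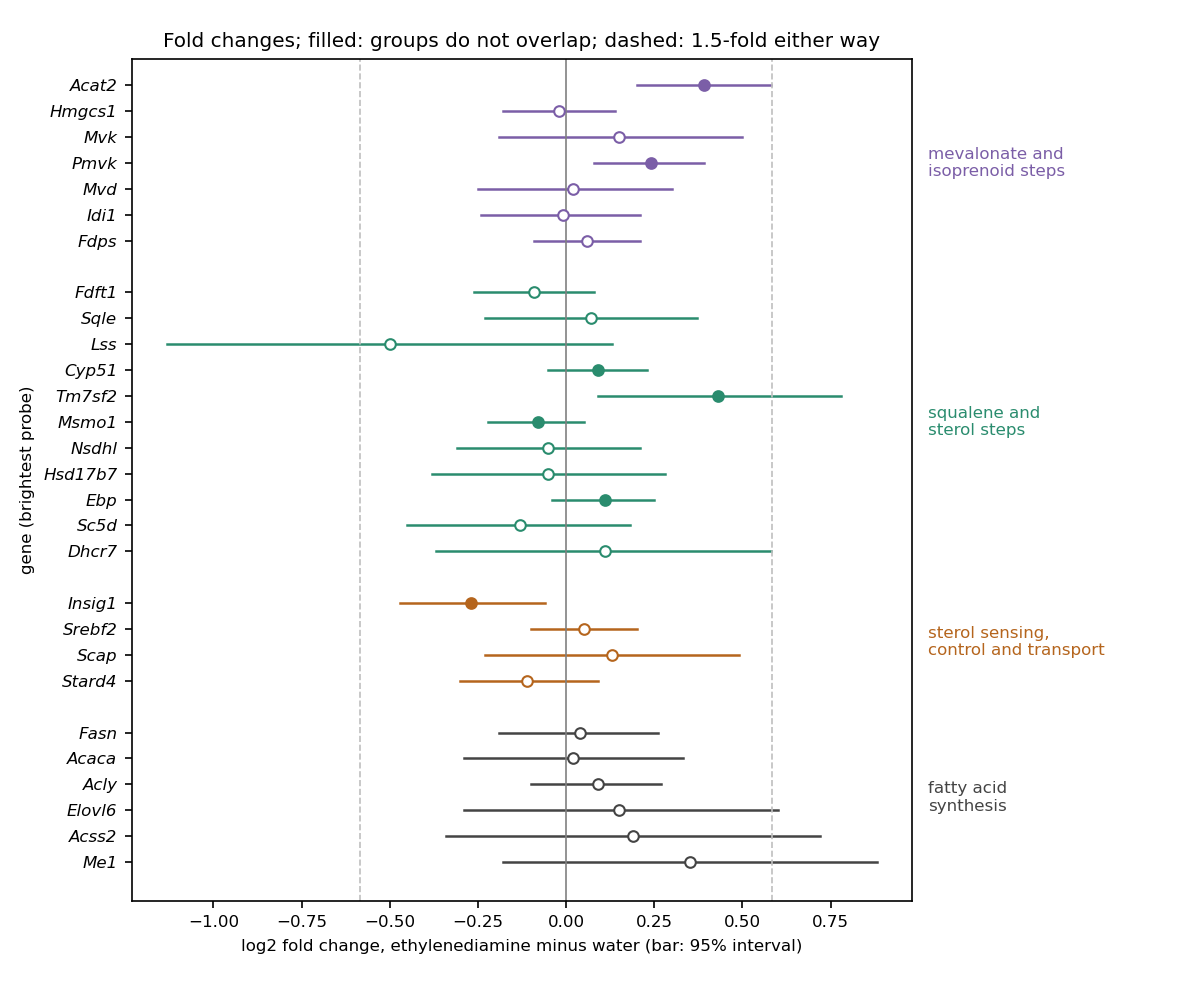
Log2 fold change, ethylenediamine minus water, of the 28 measured genes by role (points), with 95% intervals of the limma fit (bars); filled points are genes whose groups do not overlap, and dashed lines mark 1.5-fold either way. Points lie between -0.50 (Lss) and 0.43 (Tm7sf2), and the intervals of Acat2, Pmvk, Tm7sf2 and Insig1 do not reach 0.

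Start sites are shown for Insig1, Acat2 and Tm7sf2, which had an unadjusted p under 0.05 (limma). Pmvk, which also had, is not shown. Sterol-regulated promoters are known for short shared elements near a sterol regulatory element. These are a CCAAT box, bound by NF-Y, a GC box (GGGCGG), bound by Sp-family factors, and an E-box (CACGTG). Windows of 250 bases before to 50 after the start were held for 23 of the 30 genes (RefSeq, GRCr8). The sequences are those of Insig1 (chr4:8057720-8058019, minus strand), Acat2 (chr1:50100590-50100889, plus strand) and Tm7sf2 (chr1:212789492-212789791, minus strand). Hmgcs1 (chr2:53382054-53382353, plus strand), a classical sterol-regulated gene with a log2 fold change of -0.02 here, stands beside them. Each runs 5′ to 3′ on the strand of its gene, with capitals marking the CCAAT box, the GC box and the E-box on either strand:
Insig1: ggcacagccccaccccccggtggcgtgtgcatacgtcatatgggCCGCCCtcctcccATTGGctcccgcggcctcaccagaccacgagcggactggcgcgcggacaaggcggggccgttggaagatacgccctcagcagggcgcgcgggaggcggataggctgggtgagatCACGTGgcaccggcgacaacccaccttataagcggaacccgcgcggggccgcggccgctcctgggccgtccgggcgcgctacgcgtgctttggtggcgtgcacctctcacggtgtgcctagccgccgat
Acat2: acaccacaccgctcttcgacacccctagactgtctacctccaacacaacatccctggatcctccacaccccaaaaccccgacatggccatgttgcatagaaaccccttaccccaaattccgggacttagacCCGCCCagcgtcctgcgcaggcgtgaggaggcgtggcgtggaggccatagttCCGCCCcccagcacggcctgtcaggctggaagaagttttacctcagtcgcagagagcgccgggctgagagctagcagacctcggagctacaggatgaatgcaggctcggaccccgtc
Tm7sf2: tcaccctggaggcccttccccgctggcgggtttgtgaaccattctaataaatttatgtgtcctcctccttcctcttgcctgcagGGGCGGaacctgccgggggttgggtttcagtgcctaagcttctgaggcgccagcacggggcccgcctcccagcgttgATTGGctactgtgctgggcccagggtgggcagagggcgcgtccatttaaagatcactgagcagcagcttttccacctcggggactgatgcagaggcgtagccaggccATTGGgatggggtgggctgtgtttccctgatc
Hmgcs1: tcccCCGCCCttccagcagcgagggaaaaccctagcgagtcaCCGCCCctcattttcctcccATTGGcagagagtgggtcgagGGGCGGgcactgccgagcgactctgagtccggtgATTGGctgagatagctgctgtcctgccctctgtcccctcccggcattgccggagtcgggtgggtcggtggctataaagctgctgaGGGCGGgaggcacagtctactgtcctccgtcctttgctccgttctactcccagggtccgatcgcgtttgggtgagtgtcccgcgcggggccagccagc
The Insig1 window held 1 match to each of the 3 motifs. That of Tm7sf2 held 2 CCAAT and 1 GGGCGG, that of Hmgcs1 2 CCAAT and 4 GGGCGG, and that of Acat2 only 2 GGGCGG. No matches of different motifs overlapped in these 4 windows.

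Shares were taken over genes, a gene counting once if any of its windows held the letters (Srebf1 had 2 windows, the other 22 genes 1 each). CCAAT was present in 17 of 23 genes (73.9%), against 39.6% of all 27457 genes with a window and 38.6% of the 9430 tested genes with one. GGGCGG was present in 20 (87%), against 36% of all genes and 59.1% of tested genes. CACGTG was present in 3 (13%; Insig1, Sc5d and Scap), against 7.08% and 9.24%. The letters TCACNCCAC, one form of the sterol regulatory element, were in 0 of 23 genes, against 1.25% and 1.17%; other forms of the element were not searched. These shares describe letters in a window and carry no test. Insig1 and Tm7sf2, which both hold CCAAT and GGGCGG, had log2 fold changes of -0.27 and 0.43. Insig1 also holds CACGTG and Tm7sf2 does not. A relation of motifs to fold change was not tested.

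Among the 7 enzymes that lead from acetyl-CoA to farnesyl diphosphate, 5 had a fold change above 0 and 2 below, with a median of 0.06. Acat2, the cytosolic thiolase that joins acetyl-CoA units into acetoacetyl-CoA, had log2 levels of 3.37, 3.59 and 3.45 in ethylenediamine cortex, against 3.16, 3.04 and 3.04 in water cortex. All 3 ethylenediamine arrays were above all 3 water arrays, including the ethylenediamine array on the water arrays' own slide. The difference was 0.39 ± 0.08 (SE), or 1.31-fold (95% interval 1.15 to 1.5), with an unadjusted p of 0.00256 and an adjusted p of 0.329 (limma). Its second probe stood at 3.16, 3.37 and 3.18 in ethylenediamine cortex, against 2.96, 2.78 and 2.84 in water cortex, again without overlap. Within slide 1 the difference was 0.29, with an unadjusted p of 0.0372 (limma).

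Pmvk, which adds the second phosphate to mevalonate, had log2 levels of 0.44, 0.45 and 0.45 in ethylenediamine cortex, against 0.27, 0.26 and 0.10 in water cortex. The ethylenediamine arrays were almost identical to each other and above every water array. The difference was 0.24 ± 0.06 (SE), or 1.18-fold (1.05 to 1.31), with an unadjusted p of 0.0112 and an adjusted p of 0.355 (limma). Within slide 1 it was 0.23, with an unadjusted p of 0.0997 (limma). Pmvk was read by 1 probe, so no second probe bears on it.

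The other mevalonate enzymes overlapped between the groups. Hmgcs1, the synthase that makes HMG-CoA and commits acetoacetyl-CoA to the pathway, had log2 levels of 2.77, 2.63 and 2.70 in ethylenediamine cortex, against 2.70, 2.79 and 2.67 in water cortex. Its difference was -0.02 ± 0.06 (SE), with a fold interval of 0.884 to 1.1. Mvk, the mevalonate kinase, stood at -1.72, -1.53 and -1.36 in ethylenediamine cortex, against -1.50, -1.65 and -1.92 in water cortex, a difference of 0.15 ± 0.14. Mvd, which decarboxylates mevalonate diphosphate, and Idi1, the isomerase of the resulting isoprene unit, differed by 0.02 ± 0.11 and -0.01 ± 0.09. Fdps, the synthase of farnesyl diphosphate, differed by 0.06 ± 0.06, and the adjusted p of these 5 enzymes lay between 0.724 and 0.972 (limma). The dimmest of the 3 Fdps probes stood at 1.89, 1.79 and 1.81 in ethylenediamine cortex, against 1.68, 1.67 and 1.68 in water cortex, without overlap. Tested alone, it differed by 0.15 ± 0.06 with an adjusted p of 0.436 (limma), so the probes of Fdps agree in sign but not in size.

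The 11 enzymes from squalene to cholesterol were split, 5 above 0 and 6 below, with a median fold change of -0.05. Tm7sf2, a sterol reductase that acts after lanosterol demethylation, had log2 levels of 2.40, 2.63 and 2.89 in ethylenediamine cortex, against 2.06, 2.22 and 2.33 in water cortex. The groups did not overlap, but ethylenediamine replicate 1 was the nearest to the water arrays. The difference was 0.43 ± 0.14 (SE), or 1.35-fold (1.06 to 1.71), with an unadjusted p of 0.0217 and an adjusted p of 0.407 (limma). A second probe had 0.73, 1.00 and 1.19 in ethylenediamine cortex, against 0.45, 0.73 and 0.75 in water cortex, where the lowest ethylenediamine array lay within the water range. Within slide 1 the difference was 0.20 with an unadjusted p of 0.211, and without ethylenediamine replicate 1 it was 0.55 with an adjusted p of 0.229 (limma).

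Lss, which folds oxidosqualene into lanosterol, had the largest negative difference of the 28 genes and also the widest interval. Its log2 levels were 0.41, -0.51 and 0.07 in ethylenediamine cortex, against 0.21, 0.59 and 0.68 in water cortex. The arrays of slide 2 were low, while ethylenediamine replicate 1 lay among the water arrays. The difference was -0.50 ± 0.26 (SE), or 0.706-fold (0.457 to 1.09), with an adjusted p of 0.557 (limma). Its other probe differed by -0.52. Within slide 1 the difference was -0.08, without ethylenediamine replicate 2 it was -0.25, and without ethylenediamine replicate 1 it was -0.71 with an unadjusted p of 0.0269 (limma).

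Smaller separated differences were found for Ebp, Cyp51 and Msmo1. Ebp, a sterol isomerase, had log2 levels of 3.99, 3.87 and 3.92 in ethylenediamine cortex, against 3.78, 3.81 and 3.87 in water cortex, a difference of 0.11 ± 0.06. Cyp51, the lanosterol demethylase, had -0.09, -0.09 and -0.01 in ethylenediamine cortex, against -0.18, -0.09 and -0.18 in water cortex, a difference of 0.09 ± 0.06. Msmo1, the methylsterol oxidase that follows it, had 4.25, 4.17 and 4.16 in ethylenediamine cortex, against 4.25, 4.26 and 4.31 in water cortex, a difference of -0.08 ± 0.05. In each of these genes the nearest arrays of the groups are equal to the second decimal, so the separation is nominal. The adjusted p of these 3 genes lay between 0.586 and 0.642 (limma).

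The remaining sterol enzymes overlapped. Fdft1, squalene synthase, had log2 levels of 3.09, 3.25 and 3.10 in ethylenediamine cortex, against 3.20, 3.30 and 3.19 in water cortex, a difference of -0.09 ± 0.07. Sqle, squalene epoxidase and a rate-limiting step, had 1.12, 1.31 and 1.56 in ethylenediamine cortex, against 1.35, 1.27 and 1.19 in water cortex, a difference of 0.07 ± 0.12. For Sqle the ethylenediamine group held both the lowest and the highest array. Dhcr7, which reduces 7-dehydrocholesterol to cholesterol, had 2.37, 2.38 and 2.69 in ethylenediamine cortex, against 2.28, 2.08 and 2.75 in water cortex, a difference of 0.11 ± 0.19. Nsdhl and Hsd17b7, which work on the methyl groups and the ketone of the sterol ring, differed by -0.05 ± 0.11 and -0.05 ± 0.13, and the desaturase Sc5d by -0.13 ± 0.13.

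**Figure D2:**
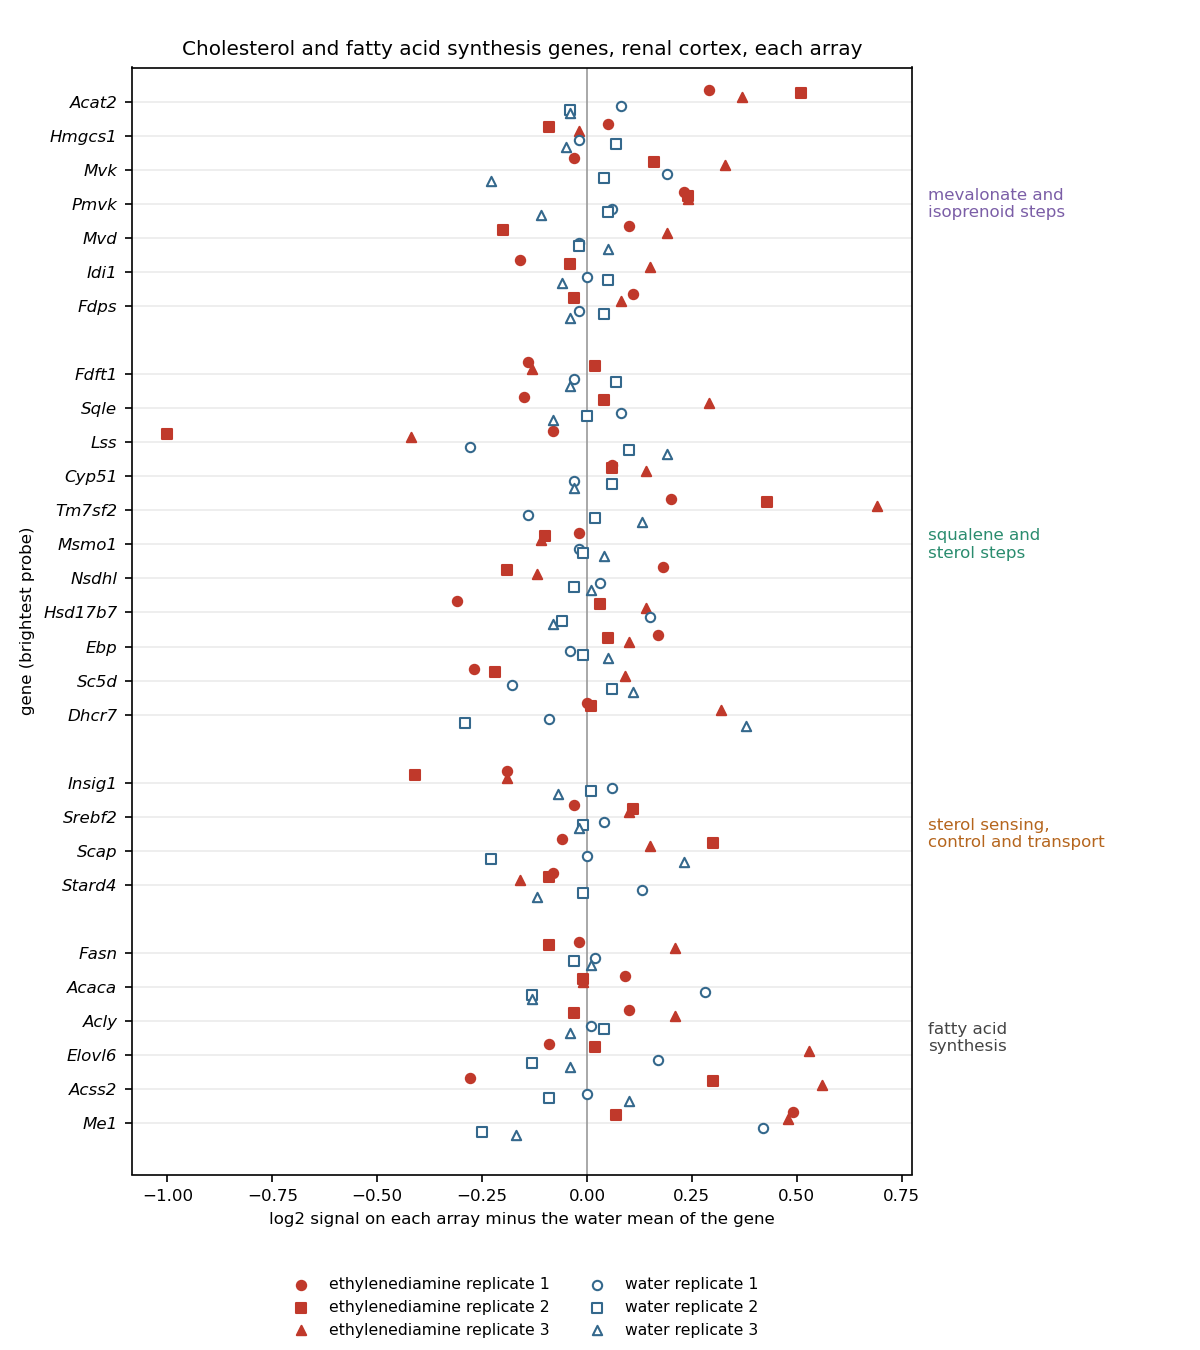
Log2 signal of each measured gene on each array minus the mean of its 3 water arrays; filled red marks are ethylenediamine replicates and open blue marks water replicates, with the same shape for the same number. Acat2 and Pmvk show all ethylenediamine marks to the right of the water marks, Insig1 all to the left, and Lss spreads with ethylenediamine replicate 2 at the far left.

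Among the genes that sense, control and carry sterol, Insig1 was the 1 of 4 measured genes at an unadjusted p under 0.05, where 10.4% of all genes passed. Insig1, the sterol-dependent anchor of the SREBP precursors and itself a target of the active factors, had log2 levels of 2.20, 1.98 and 2.20 in ethylenediamine cortex, against 2.45, 2.40 and 2.32 in water cortex. All ethylenediamine arrays were below all water arrays. The difference was -0.27 ± 0.08 (SE), or 0.83-fold (0.721 to 0.956), with an unadjusted p of 0.0183 and an adjusted p of 0.396 (limma). All 4 Insig1 probes were lower: their differences were -0.27, -0.33, -0.29 and -0.49, each with an adjusted p of 0.356 to 0.395 when every probe was tested alone (limma). The probes read the same RNA of the same rats, so they are not further replicates. Within slide 1 the difference was -0.20, with an unadjusted p of 0.0946 (limma).

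For the factor and its escort the groups overlapped. Srebf2 had log2 levels of 1.58, 1.72 and 1.71 in ethylenediamine cortex, against 1.65, 1.60 and 1.59 in water cortex, a difference of 0.05 ± 0.06 with an adjusted p of 0.772 (limma). Scap had 1.94, 2.30 and 2.15 in ethylenediamine cortex, against 2.00, 1.77 and 2.23 in water cortex, a difference of 0.13 ± 0.15. Stard4, a soluble sterol carrier, differed by -0.11 ± 0.08, and its 2 probes had opposite signs. Srebf1 was not analysed here, since no probe carried an accession that named it. The array measures transcript, not the cleaved factor. Of the 28 genes, 19 had 2 or more kept probes, and in 16 of these all probes had a fold change of the same sign.

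**Figure D3:**
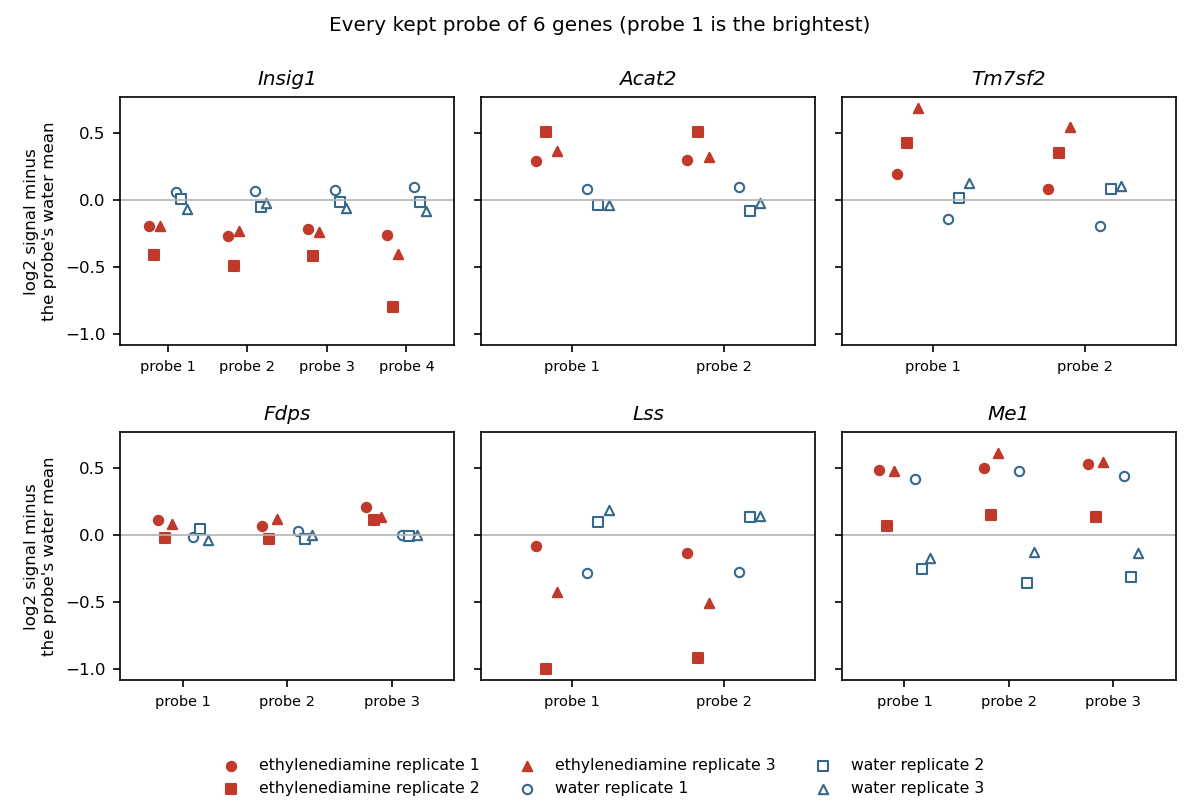
Log2 signal of every kept probe of Insig1, Acat2, Tm7sf2, Fdps, Lss and Me1 on each array, minus that probe's mean over the 3 water arrays; filled red marks are ethylenediamine arrays and open blue marks water arrays, and probe 1 is the brightest of its gene. The ethylenediamine marks of Insig1 lie below the water marks on 4 of 4 probes and those of Acat2 above them on both, while water replicate 1 lies among the ethylenediamine marks on all 3 probes of Me1.

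All 6 measured enzymes of fatty acid synthesis had a fold change above 0, with a median of 0.12, where 5632 of all 11530 genes were above 0. None reached an unadjusted p under 0.05 and no pair of groups was separated. Within slide 1, Fasn, Elovl6 and Acss2 were below 0 (-0.02, -0.09 and -0.28), while Acaca, Acly and Me1 stayed above. Without ethylenediamine replicate 3, Fasn and Elovl6 were below 0 (-0.06 and -0.04), and the others of the 6 stayed above. Me1, the malic enzyme that supplies NADPH, had log2 levels of 4.40, 3.98 and 4.39 in ethylenediamine cortex, against 4.33, 3.66 and 3.74 in water cortex. Water replicate 1 stood with the ethylenediamine arrays, on all 3 probes of the gene. The difference was 0.35 ± 0.22 (SE), or 1.27-fold (0.88 to 1.84), with an adjusted p of 0.623 (limma). Without water replicate 1 it was 0.56, with an unadjusted p of 0.0166 and an adjusted p of 0.557, and within slide 1 it was 0.49 (limma).

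Acss2, which makes acetyl-CoA from acetate, had log2 levels of 2.50, 3.08 and 3.34 in ethylenediamine cortex, against 2.78, 2.69 and 2.88 in water cortex. The lowest and the 2 highest arrays were all from ethylenediamine rats, with the low one on slide 1. The difference was 0.19 ± 0.21, and within slide 1 it was -0.28 with an unadjusted p of 0.0593. Without ethylenediamine replicate 1 it was 0.43 with an adjusted p of 0.251, and without ethylenediamine replicate 3 it was 0.01 (limma). A second probe had 0.17, 0.69 and 0.86 in ethylenediamine cortex, against 0.51, 0.55 and 0.66 in water cortex, a difference of 0.00 ± 0.18. For Acss2 the size of the difference moved with the ethylenediamine array left out, and its sign turned within slide 1.

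Fasn, the fatty acid synthase itself, had log2 levels of 1.06, 0.99 and 1.29 in ethylenediamine cortex, against 1.1, 1.05 and 1.09 in water cortex, a difference of 0.04 ± 0.09. Acly, which splits citrate into the acetyl-CoA used by both pathways, had 3.76, 3.63 and 3.87 in ethylenediamine cortex, against 3.67, 3.70 and 3.62 in water cortex, a difference of 0.09 ± 0.08. Elovl6, an elongase of saturated fatty acids, had 1.21, 1.32 and 1.83 in ethylenediamine cortex, against 1.47, 1.17 and 1.26 in water cortex, a difference of 0.15 ± 0.18. For these genes the highest array was ethylenediamine replicate 3. Acaca, the acetyl-CoA carboxylase of the cytosol, differed by 0.02 ± 0.13, and its 2 probes had opposite signs. Scd, a stearoyl-CoA desaturase, was not well above background on any of the 6 arrays with either of its 2 probes, so it has no fold change. Scd2, another desaturase of this family and named after its values were seen, had 1.30, 1.49 and 0.86 in ethylenediamine cortex, against 1.35, 1.54 and 1.39 in water cortex, a difference of -0.21 ± 0.17.

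The pattern across arrays was uneven. Ethylenediamine replicate 3 held the highest of the 6 values for 11 of 28 genes (39.3%), against 19.9% of all genes tested, and the lowest for 2 (7.14%), against 20.3%. The median deviation of the 28 genes from their water means was -0.02, 0.01 and 0.15 on the ethylenediamine arrays and 0.005, -0.01 and -0.04 on the water arrays. For the 6 fatty acid enzymes it was 0.03, 0.004 and 0.35 on the ethylenediamine arrays and 0.09, -0.11 and -0.04 on the water arrays. Without ethylenediamine replicate 3 the median log2 fold change over the 28 genes was -0.003, and within slide 1 it was -0.022. The standard deviation among ethylenediamine arrays was the larger for 20 of 28 genes (71.4%), against 58.4% of all genes, with medians of 0.16 in ethylenediamine and 0.07 in water cortex. The ethylenediamine arrays span both slides and the water arrays do not, so slide and treatment cannot be told apart in this spread.

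**Figure D4:**
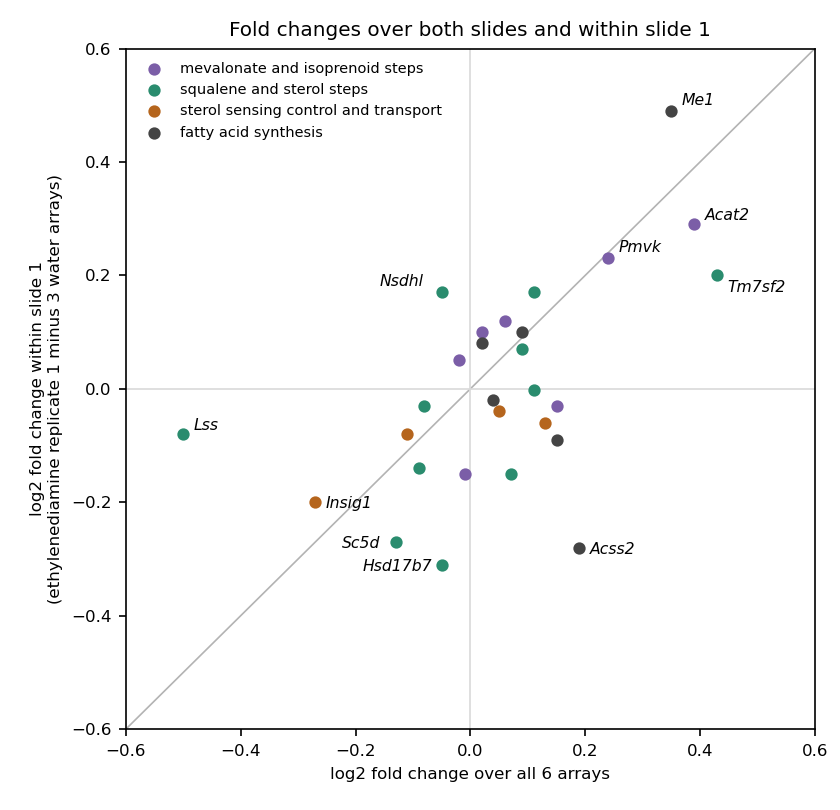
Log2 fold change of each measured gene within slide 1 (ethylenediamine replicate 1 minus the 3 water arrays) against the fold change over all 6 arrays. The 2 axes share the water arrays and ethylenediamine replicate 1; Acat2 stands at 0.29 and 0.39, Insig1 at -0.20 and -0.27, Lss at -0.08 and -0.50, and Acss2 at -0.28 and 0.19.

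Markers of tissues that make or store lipid were read beside these values. Of 10 adipose markers 8 had a probe and 4 were measured. Signals summed over the 8, dim probes included, were 1.21, 2.21 and 2.00 times the 75th percentile in ethylenediamine cortex. In water cortex they were 1.47, 1.37 and 1.61. The 2 arrays of slide 2 were the higher ones, as they were for Acss2. Of the 4 measured markers, Cidec, Cfd and Lipe had log2 fold changes of 1.09, 0.49 and 0.21. Adipoq, the defining hormone of fat, had one of -0.16. Of 7 adrenal cortex markers 1 was measured (Cyp21a1, with a log2 fold change of 0.12), and the other 6, among them Cyp11a1 and Star, were not well above background in either group. The 3 liver markers summed to 0.452, 0.15 and 0.377 in ethylenediamine cortex, against 0.0773, 0.0899 and 0.0532 in water cortex. Of these, Alb was well above background on 3 ethylenediamine arrays and 1 water array and Ttr on 3 and 0. Both thus entered only through the ethylenediamine group. Apoa1 was well above background on 3 arrays of each group, so the water sums hold its detected signal beside background signal of Ttr. It stood at -4.05, -4.5 and -4.32 in ethylenediamine cortex, against -4.76, -4.06 and -5.13 in water cortex. The groups overlapped for Apoa1, with a difference of 0.36 ± 0.29 and an adjusted p of 0.687 (limma). The mean Ttr signal in ethylenediamine cortex was 3.54-fold above the lowest signal counted as above background, averaged over the water arrays. This sets it against a detection level and not a measured water level, so it is no strict bound. The part of these tissues in the lipid genes' values was not tested.

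Other genes of the same biology were counted as 2 lists. Of 16 sterol and isoprenoid genes, all 16 were measured, 9 above 0 and 7 below, with a median of 0.02 and 1 in each direction at an unadjusted p under 0.05 (12.5%, against 10.4% of all genes). Insig2, the partner of Insig1, had log2 levels of -0.25, -0.50 and -0.47 in ethylenediamine cortex, against -0.17, -0.22 and -0.13 in water cortex. All ethylenediamine arrays were below all water arrays, as for Insig1, with a difference of -0.23 ± 0.08 and an adjusted p of 0.442 (limma). Mbtps2, one of the Golgi proteases, was higher by 0.30 ± 0.10 on its brightest probe (adjusted p 0.418, limma). Its 2 probes had opposite signs, each at an unadjusted p under 0.05 when tested alone (limma), so the direction of Mbtps2 is not settled.

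Of 19 fatty acid and lipid genes, 17 were measured, 7 above 0 and 10 below, with a median of -0.04; 2 were higher and 2 lower at an unadjusted p under 0.05 (23.5% of 17, against 10.4% of all genes). Acsl1, the acyl-CoA synthetase that activates long-chain fatty acids for oxidation and esterification, had log2 levels of 5.30, 5.21 and 5.16 in ethylenediamine cortex, against 5.69, 5.63 and 5.61 in water cortex. Every ethylenediamine array was below every water array and all 4 probes were lower. The difference was -0.42 ± 0.06, with an unadjusted p of 0.00049 and an adjusted p of 0.235 (limma). Among the higher genes, Thrsp, a regulator of lipogenesis, differed by 0.25 ± 0.10, with an adjusted p of 0.47 (limma). Acacb, the carboxylase that controls fatty acid entry into mitochondria, is the other lower gene, with -4.49, -4.04 and -4.52 in ethylenediamine cortex, against -4.09, -3.79 and -3.79 in water cortex. It was well above background on 2 of 3 ethylenediamine arrays and so was tested only because of its water signal.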

How the data were processed

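Total RNA of the renal cortex of 6 rats (3 given ethylenediamine, 3 given water) was read on 1-colour Agilent arrays, 1 array per animal, and groups and replicate numbers came from the labels. Each deposited scanner file gives the spots' intensity on a linear scale, not scaled between arrays. The background had been subtracted by Agilent Feature Extraction, whose version is 10.7.1.1 in the file headers and 10.7 in the submitters' processing notes; the probe grid was built on rn4. The deposited processed table holds the same intensity divided by a constant per array, taken to be its 75th percentile. On every array 100% of probes lay within 2% of the array's median ratio, which checks proportion and not the divisor. The deposited values are linear and uncentred, and served as an alternative. Their column medians were 0.1062, 0.1104 and 0.1071 for ethylenediamine and 0.1076, 0.1053 and 0.1046 for water.

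Here log2 intensity minus each array's 75th percentile was used, over 61515 probes (22 with an outlier flag and 1439 control spots left out; 0 spots saturated). RefSeq accessions named 28194 probes through GRCr8 annotation and left 33321 unnamed. Probes well above background on all 3 arrays of a group were kept (37822), and the brightest probe stood for each of 11530 genes. Groups were compared with limma 3.58.1 (R 4.3.3; lmFit and eBayes, Benjamini-Hochberg adjustment over all genes, threshold 0.05), tested on simulated data. Array number (3 per group) limits precision.

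The 30 genes, their role groups and the other lists were chosen with earlier results of these data known, so no count over them is independent support. All 30 are accounted for, and genes of the 2 further lists are named at an unadjusted p under 0.05, except where stated and except 1 gene that is not reported here. The normexp alternative used the median spot signal with an offset of 50, since the files hold no mean-signal column. Promoter windows came from RefSeq (GRCr8) and were matched by symbol, with motifs searched on both strands. Alternatives were the background correction, scaling, filter, probe choice, variance model, slide, replicate block and leaving out each array.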

Additional observations from a re-analysis of the deposited data

How the results depend on the processing

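No setting gave any of the 28 genes an adjusted p under 0.05; the smallest was 0.179 (Acat2 without ethylenediamine replicate 1). The count over all genes was 0 with 75th percentile scaling, 4 of 37822 with every probe alone, 1 with an intensity trend, 10 with slide as a fixed block, 6 within slide 1 and 0 to 1 with 1 array left out. The median over the 28 genes was -0.022 with the slide block and within slide 1, and ran from -0.003 to 0.087 with 1 array left out. Acat2 kept an unadjusted p under 0.05 in 19 of 19 alternatives, Pmvk in 17, Insig1 in 15 and Tm7sf2 in 14, all without a change of sign; the slide block and slide 1 alone, which are 2 of the 19, share 1 estimate that rests on 1 ethylenediamine array. Replicate numbers did not pair the samples (correlations of deviations of -0.003, 0.022 and -0.008): with the replicate block 0 genes passed, the median stayed at 0.057 and 948 genes, against 1194, had an unadjusted p under 0.05. Of the single-gene values under alternatives, 487 kept their sign and side of the threshold and 45 changed sign; the cause was not tested. These were, on the log2 scale, Mvd -0.0004 and Nsdhl 0.01 with normexp; Mvd -0.003 and Acaca -0.008 with median scaling; Acaca -0.01 with quantile scaling; Idi1 0.01 and Acaca -0.06 with the mean of probes; Mvd -0.02 and Idi1 0.0005 with array weights. With the slide block, and equally within slide 1, they were Hmgcs1 0.05, Mvk -0.03, Sqle -0.15, Nsdhl 0.17, Dhcr7 -0.002, Srebf2 -0.04, Scap -0.06, Fasn -0.02, Elovl6 -0.09 and Acss2 -0.28. With 1 array left out, values ran from -0.05 to 0.14 for Mvd, -0.09 to 0.06 for Idi1, -0.14 to 0.08 for Hsd17b7, -0.05 to 0.16 for Acaca, -0.06 to 0.02 for Hmgcs1, -0.16 to 0.02 for Nsdhl, -0.05 to 0.17 for Sqle, -0.06 to 0.10 for Fasn, -0.04 to 0.27 for Elovl6 and -0.04 to 0.30 for Dhcr7. Without the filter on dim probes 29 genes were tested, Scd among them, but its signal was not above background.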
